A study of Mus musculus with 125 samples.

Results

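Line D is a mouse B-ALL line (B-cell acute lymphoblastic leukaemia), and those of its cells that were still present after 10 days with natural killer (NK) cells were compared with line D cells grown without NK cells. The comparison took in the 12 libraries of line D in experiments 9.5 and 9.6, chosen by their labels from the 125 libraries of the series. B-ALL + NK at time point 2 (day 10) held 6 libraries, 3 in each experiment, and B-ALL alone at time point 1 (day 4) held another 6, also 3 in each experiment. The day numbers follow the labels, whereas the paper places the second time point later than day 10. Chromatin accessibility was read by ATAC-seq: a transposase cuts DNA where it is open and adds sequencing adapters there, so that read pairs pile up into peaks over accessible regions.

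Line D carries the BCR/ABLp185 fusion kinase on a C57BL/6 background, is tagged with DNA barcodes and green fluorescent protein (GFP), and shares its parental line with line C, whereas lines A and B come from another parental line. The culture is therefore a pool of barcoded descendants of 1 parental line. The NK cells came from wild-type mice and were activated with IL-2, and, per the study's methods, IL-2 was present in all conditions, B-ALL alone included. GFP+ cells were sorted before transposition. B-ALL alone was sampled at day 4 and not at day 10. The length of culture and the exposure to NK cells therefore cannot be told apart where a later day with NK cells is compared with B-ALL alone or with day 4. B-ALL + NK was also sampled at day 4, so the values of day 4 over alone, given further below, compare cultures of the same length. Fewer cells of a type and less accessible DNA per cell cannot be told apart in bulk samples. The labels number the replicates without naming cultures, and the study's text describes separate wells of a line for each condition, so the p-values measure the spread between wells of this 1 line.

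NK cells kill target cells with perforin and granzymes and through death receptors, and they secrete interferon-γ (IFN-γ). Interferon signals reach DNA at short sequence elements, of which GAS elements are known for IFN-γ and ISRE elements for type I interferon. Targets include immunity-related and guanylate-binding GTPases that attack vacuoles of pathogens, antiviral genes such as Mx1, MHC genes and serpin protease inhibitors.

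The B-ALL + NK libraries held 5310200 to 9446082 counts in consensus peaks and the B-ALL alone libraries 5733347 to 8561375 (exact two-sided permutation p = 0.8, labels permuted within experiment). All 9 B-lineage markers had a consensus peak. Their summed level averaged 446 ± 76.5 CPM (counts per library size) in B-ALL + NK and 564 ± 141 CPM in B-ALL alone (SD, n = 6 each, exact p = 0.015). The share of counts within 3 kb of a transcription start site (TSS) ranged from 38.2 to 44.3% in B-ALL + NK and from 44.3 to 48.1% in B-ALL alone (means 42.6% in B-ALL + NK and 46.5% in B-ALL alone, exact p = 0.005, the smallest that the 400 arrangements allow). A single library stood apart, replicate 2 of B-ALL + NK in experiment 9.6, with 38.2% of its counts near TSSs and 101211 broad peaks, against 44810 to 61613 broad peaks in the other 5 libraries of its arm. The counts of calls below are therefore also given without it.

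NK cell markers were read as well, since any NK cells that the GFP sort let through would be counted with the leukaemia. Of 11 NK markers 8 had a consensus peak near a TSS, and Ncr1, Klrk1 and Ifng had none. The summed level ranged from 45.8 to 58.2 CPM in B-ALL + NK and from 42.0 to 49.4 CPM in B-ALL alone (exact p = 0.01). Among them only Gzmb, which encodes granzyme B, was called higher. It had 4.65 to 11.5 CPM in B-ALL + NK and 3.15 to 4.26 CPM in B-ALL alone. Prf1, Tbx21, Itga2 and Eomes also lay higher, at log2 fold changes of 0.57, 0.55, 0.21 and 0.13, without a call. Tbx21 had 8.35 to 11.5 CPM in B-ALL + NK and 4.9 to 8.08 CPM in B-ALL alone. Gzma was not tested, with means of 1.69 CPM in B-ALL + NK and 0.807 CPM in B-ALL alone. Klrb1c and Klrd1, which encode NK receptors, lay lower, at −0.35 and −0.25, without a call. Summed T cell markers lay at 18.1 to 34.0 CPM in B-ALL + NK and 18.9 to 35.7 CPM in B-ALL alone (exact p = 0.935), and myeloid markers at 49.3 to 64.8 CPM in B-ALL + NK and 47.2 to 55.4 CPM in B-ALL alone (exact p = 0.2). The part of these markers in the results below was not tested.

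The sequences that follow are parts of peaks with the largest fold changes that carry a match to an interferon, NF-κB or AP-1 motif. They are shown because interferon signals act on DNA at such elements. Of the 30 peaks described in detail below, 8 are given that have a match to GAS (TTCNNNGAA), ISRE (GAAANNGAA), NF-κB (GGANNTTCC) or AP-1 (TGANTCA) on either strand of their central 300 bases: all 7 such gains outside the chromosome that holds the Iigp1 genes, and the loss with the largest change. Each run is the + strand of GRCm38 (RefSeq), 5′ to 3′, with the match nearest to the centre of the peak in capitals. A match is a description and not a binding site.

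Gains with a GAS match lay at chr19:11559732-11559800 beside Gm10212 in the Ms4a region and at chr8:108317581-108317649 in an intron of Gm39244 near Zfhx3, where an NF-κB match overlaps the capitals.
Gm10212: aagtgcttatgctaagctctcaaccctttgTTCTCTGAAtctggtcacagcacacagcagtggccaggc
Gm39244: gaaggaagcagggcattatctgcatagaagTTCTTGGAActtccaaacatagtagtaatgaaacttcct
Gains with an ISRE match lay at chr19:11494724-11494792 in Gm8369, at chr16:36602788-36602856 beside Gm49662 near Casr, and at chr1:97412331-97412399 in Gm7135. In the last pair the motif reads on the − strand, so the capitals show its complement.
Gm8369: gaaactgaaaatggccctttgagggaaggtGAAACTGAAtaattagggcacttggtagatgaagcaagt
Gm49662: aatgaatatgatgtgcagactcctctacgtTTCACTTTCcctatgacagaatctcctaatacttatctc
Gm7135: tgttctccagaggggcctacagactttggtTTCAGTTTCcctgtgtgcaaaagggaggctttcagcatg
Gains with an AP-1 match lay at chr1:62175142-62175208 in Pard3bos2 and at chr12:104223949-104224015 beside Gm8918, next to Serpina3f.
Pard3bos2: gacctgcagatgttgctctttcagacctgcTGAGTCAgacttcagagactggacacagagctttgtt
Gm8918: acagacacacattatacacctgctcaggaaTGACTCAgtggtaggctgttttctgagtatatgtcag
The loss with the largest change that held a match lay at chr13:16465628-16465696 beside Gm48496, upstream of Inhba.
Gm48496: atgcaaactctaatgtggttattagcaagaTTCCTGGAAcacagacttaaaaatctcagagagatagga

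Over all tested peaks, 8.31% held a GAS match in the central 300 bases, 8.89% an ISRE match, 9.04% an AP-1 match and 3.31% an NF-κB match. Among the 250 called gains with the largest fold change 26.8% held an ISRE match and 10.4% a GAS match. In the 250 largest losses the GAS share was 18.4% and the ISRE share 13.2%. All called gains together held ISRE in 8.84% and GAS in 6.63%, and all called losses in 11.6% and 12.6%. The peaks differ in GC content, which these shares do not take into account, and the shares carry no test.

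The first question was which regions differed in accessibility between the cells that had outlasted NK cells and the cells grown alone. A peak was called where the quasi-likelihood F-test of edgeR, with experiment as a block, reached 0.05 or less after Benjamini-Hochberg adjustment over all tested peaks and the fold change was at least 1.5, which is 0.58 on the log2 scale. Of 104147 tested peaks, 9397 (9.02%) gained accessibility in B-ALL + NK and 4786 (4.6%) lost it, 13.6% in all. Within 3 kb of a TSS 27612 peaks were tested, of which 1941 (7.03%) gained and 1322 (4.79%) lost, but with an offset that removes the trend with GC content 1342 gained and 2994 lost. Without replicate 2 of B-ALL + NK in experiment 9.6 there were 6491 gains and 3507 losses, of which 5498 and 3002 were among the calls above. The number of gains dropped to 5966 without replicate 2 of B-ALL + NK in 9.5, to 4559 without replicate 1 of B-ALL alone in 9.6 and to 5617 without replicate 3 of that group, which also left 3188 losses. Fitted alone, experiment 9.5 gave 6866 gains and 3228 losses and experiment 9.6 gave 61 and 40.

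Most gains were weak peaks and most losses were strong ones. The median gain lay at 4.14 CPM in B-ALL + NK and 2.22 CPM in B-ALL alone, and 14.8% of gains overlapped a broad peak in every library of a group. The median loss lay at 5.31 CPM in B-ALL + NK and 9.21 CPM in B-ALL alone, and 75.6% of losses were detected in that sense, compared with 40.8% of all tested peaks. Of 5 equal groups of tested peaks ordered by level, the weakest had a median log2 fold change of 0.28 and the strongest −0.29. GC content moved with the effect too: of 5 equal groups by GC content, the AT-richest had a median of −0.23 and the GC-richest 0.31. Gains made up 66.3% of calls with TMM scaling, 49.8% with a loess offset that removes the trend with level, 55.3% with the GC offset (6.88% of peaks gained and 5.57% lost), 41.1% with no filter on low counts and 91.1% when promoter peaks were fitted alone. Among promoter peaks of the whole fit gains made up 59.5% of calls with TMM scaling, 31.0% with the GC offset and 49.7% with DESeq2. The balance of gains and losses over the genome thus depends on the scaling, and the peaks that follow were chosen among those with large changes.

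**Figure D1:**
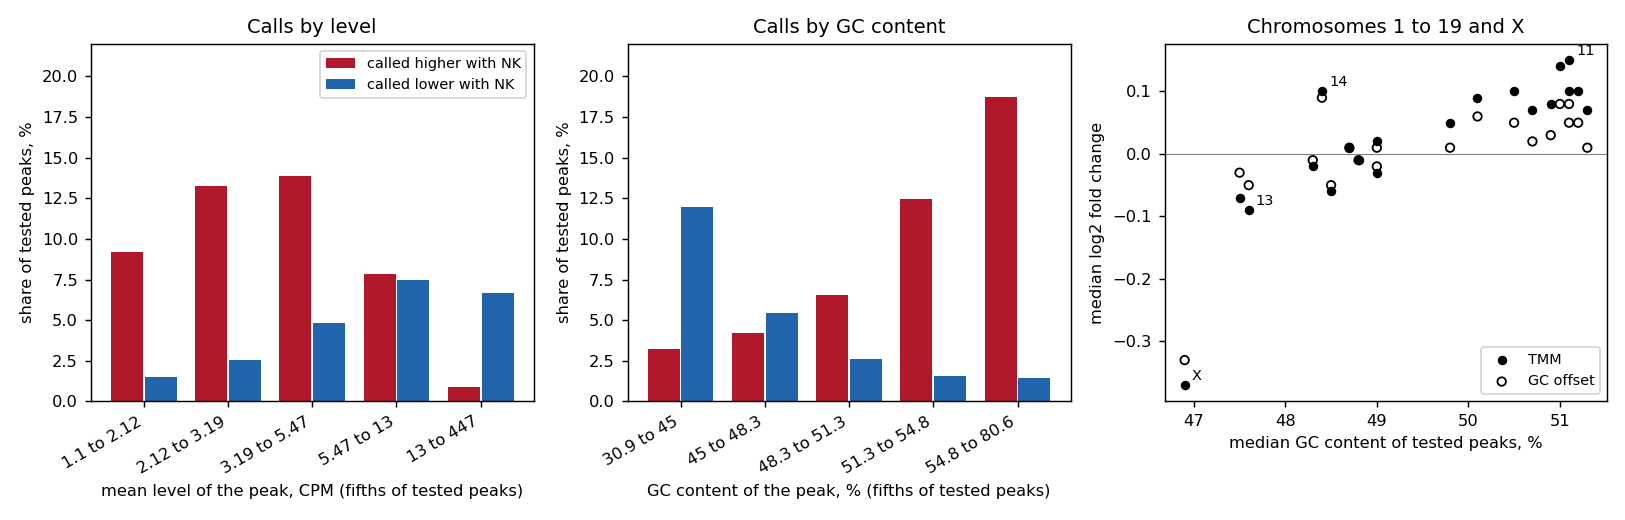
Share of tested peaks called higher (red) or lower (blue) in B-ALL + NK at day 10 than in B-ALL alone, in %, for 5 equal groups of peaks by mean level in CPM (left) and by GC content in % (middle), and the median log2 fold change of each chromosome against the median GC content of its peaks (right; filled, TMM scaling; open, GC offset). Gains sit among GC-rich peaks of low to middle level, losses among strong and AT-rich peaks. Chromosome X lies lowest at −0.37, or −0.33 with the GC offset.

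The 15 gains and 15 losses with the largest fold change are given here, 1 per nearest gene, among called peaks of at least 1 CPM in the higher arm whose libraries did not overlap between the arms within either experiment. This held for 3482 of the gains and 2767 of the losses, and, called or not, 4.18% of tested peaks lay apart upwards and 6.73% downwards. Peaks are named after the gene with the nearest TSS in GENCODE. Levels are CPM scaled to the effective library size, given as the lowest, the median and the highest of the 6 libraries of an arm.

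The gain with the largest fold change lay at the pseudogene Olfr753-ps1 (chr17:37184493-37185997, intron), 8647 bp from the TSS of Ubd. Ubd encodes the ubiquitin-like protein FAT10, which IFN-γ and TNF induce. The peak had 5.76, 13.4 and 21.3 CPM in B-ALL + NK, against 0.888, 1.13 and 1.67 CPM in B-ALL alone. Every library with NK cells thus lay above every library without them, with a log2 fold change of 3.47 ± 0.26 (SE, edgeR adjusted p = 7.96e-09). By experiment the log2 fold change was 3.98 in 9.5 and 3.04 in 9.6.

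Around Iigp1 on chromosome 18, a gene of the IFN-γ-inducible GTPases that act on parasite vacuoles, all 20 tested peaks between positions 60201589 and 60394785 gained, with a median log2 fold change of 2.15 (1.24 to 3.05). The locus holds 44 consensus peaks, and the 24 others did not pass the filter on low counts. That filter keeps a peak whose counts suffice in either arm, so a weak peak could be tested through B-ALL + NK only. The full counts of gains here and at Serpina3 and Ms4a below are therefore a description. Within the intron of Iigp1 (chr18:60378501-60379086) the levels were 2.49, 4.78 and 5.66 CPM in B-ALL + NK and 0.197, 0.487 and 0.913 CPM in B-ALL alone, a log2 fold change of 3.05 ± 0.33. The peak nearest to the Iigp1 TSS (chr18:60380311-60383399) had 7.59, 14.6 and 17.9 CPM in B-ALL + NK and 2.96, 4.09 and 4.9 CPM in B-ALL alone (1.86 ± 0.20). Neither pair of arms overlapped. The neighbouring genes Gm5970, Gm4841 and Gm4951 had log2 fold changes of 2.90 ± 0.26, 2.89 ± 0.27 and 2.66 ± 0.26, and Gm4951 reached the highest level of the 15, at 9.68, 27.7 and 36.8 CPM in B-ALL + NK and 1.92, 3.92 and 5.96 CPM in B-ALL alone. These GTPase genes are similar in sequence and reads can be assigned to the wrong copy, which makes the value of any one of them uncertain.

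The Serpina3 cluster on chromosome 12, which encodes secreted and intracellular serine protease inhibitors, gained at all 12 tested peaks between positions 104213544 and 104274226 (median log2 fold change 2.3, 23 consensus peaks). Serpina3g, whose product inhibits cathepsin proteases in lymphocytes, had 7.46, 10.7 and 13 CPM at its promoter (chr12:104234916-104236894) in B-ALL + NK and 0.888, 1.34 and 2.25 CPM in B-ALL alone (2.79 ± 0.22, edgeR adjusted p = 1.35e-08). A peak 9954 bp from the TSS of Serpina3i (chr12:104271927-104274226) had 7.37, 9.2 and 13.9 CPM in B-ALL + NK and 0.592, 1.29 and 3.35 CPM in B-ALL alone (2.72 ± 0.25). Gm8918, the AP-1 sequence above (chr12:104222904-104225087), had a log2 fold change of 2.68 ± 0.24. The promoter of Serpina3f, below the 15 by fold change, had 18.7, 35.0 and 50.1 CPM in B-ALL + NK and 5.02, 5.89 and 7.77 CPM in B-ALL alone (2.48 ± 0.18). The arms were apart at each of these peaks, and the serpin copies share sequence, with the same limit on single values.

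The Ms4a region of chromosome 19, which encodes proteins that span the membrane 4 times (CD20 is of this family), gained at all 8 tested peaks between positions 11469355 and 11560244 of its 26 consensus peaks (median 2.43). The ISRE sequence of Gm8369 (peak chr19:11494003-11495504) belongs to a peak with 6.67, 12.4 and 18.2 CPM in B-ALL + NK and 0.84, 1.43 and 1.95 CPM in B-ALL alone (3.0 ± 0.22, edgeR adjusted p = 7.96e-09). Gm10212, with the GAS sequence (peak chr19:11559278-11560244, 22960 bp from the TSS of Ms4a4d), had 2.35, 3.14 and 5.28 CPM in B-ALL + NK and 0, 0.179 and 0.761 CPM in B-ALL alone. Its log2 fold change of 3.44 ± 0.41 rests on a few counts in the cells alone and depends on the prior count of the fit. Both peaks had no overlap between the arms.

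The other gains lay outside these loci. Gm39244, 374966 bp from the TSS of the transcription factor gene Zfhx3 (chr8:108316611-108318610), had 2.88, 11 and 13.7 CPM in B-ALL + NK and 0.21, 1.24 and 1.98 CPM in B-ALL alone (3.05 ± 0.34). Its central 300 bases held 7 matches to the GAS, ISRE and NF-κB motifs, with each strand counted. The NF-κB matches among them are 1 stretch of bases that fits the motif on both strands. Gm49662, 40731 bp from the calcium-sensing receptor gene Casr (chr16:36602526-36603204), had 4.45, 6.11 and 9.72 CPM in B-ALL + NK and 0.444, 0.85 and 1.89 CPM in B-ALL alone (2.87 ± 0.26). Pard3bos2 (chr1:62174620-62175506, nearest coding gene Nrp2, a semaphorin receptor) had 1.57, 2.89 and 3.91 CPM in B-ALL + NK and 0.21, 0.351 and 0.591 CPM in B-ALL alone (2.82 ± 0.35). Gm7726 (chr7:74682817-74684895, nearest coding gene Slco3a1, an organic anion transporter) and Gm7135 (chr1:97412047-97412813) had log2 fold changes of 2.81 ± 0.27 and 2.62 ± 0.25. With the GC offset the 15 gains lay between 2.65 and 3.70 on the log2 scale.

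**Figure D2:**
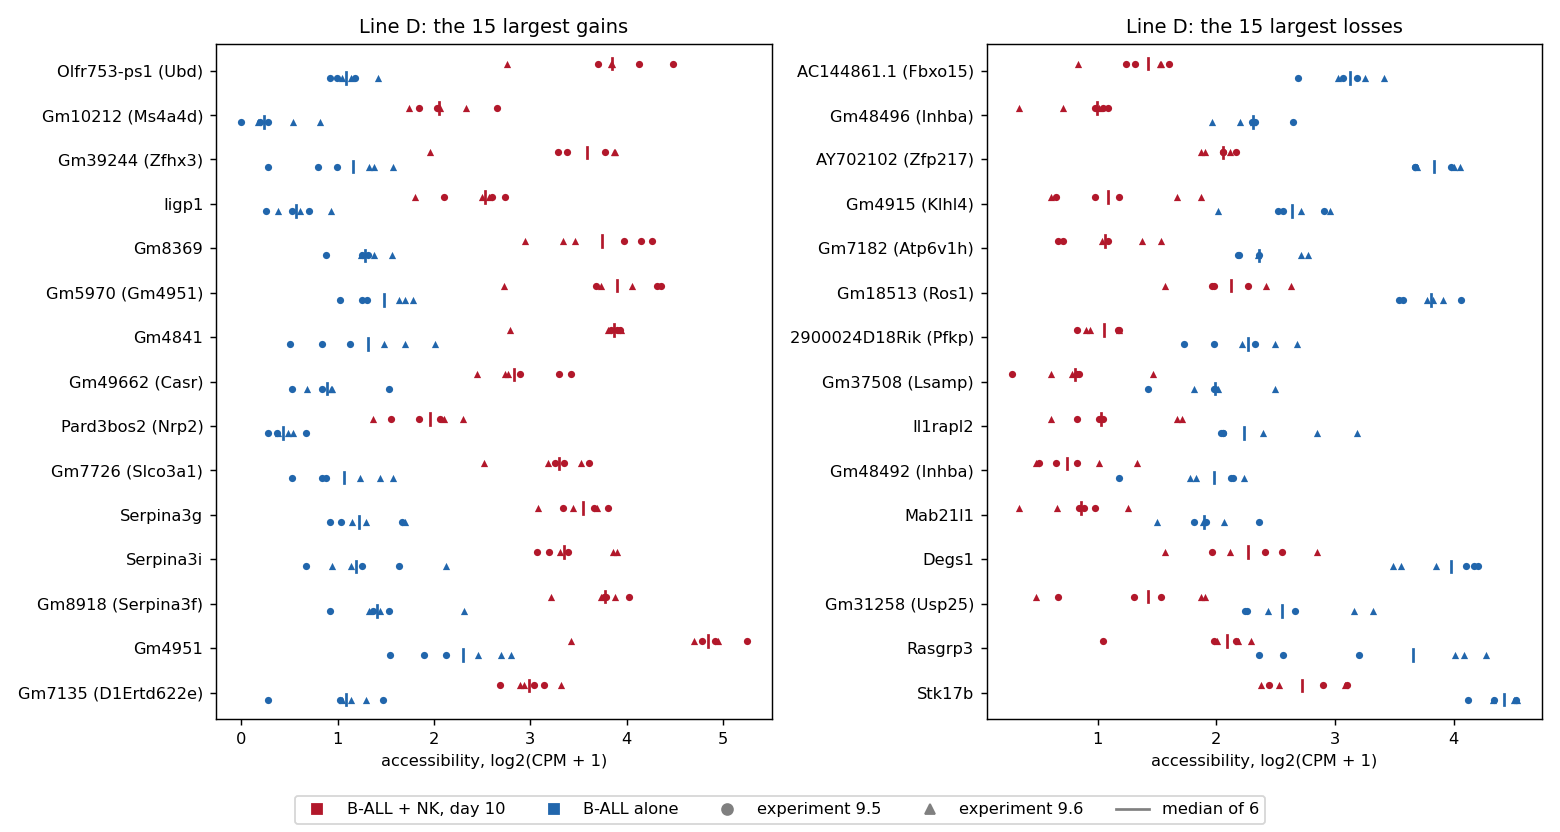
Accessibility of the 15 largest gains (left) and the 15 largest losses (right) of line D as log2(CPM + 1), in each library of B-ALL + NK at day 10 (red, above) and B-ALL alone (blue, below), circles for experiment 9.5 and triangles for 9.6, bars for the median of 6; the nearest protein-coding gene is in parentheses where it differs. The arms do not overlap within an experiment by the rule of choice, and the lowest red triangle of several gains, such as 5.76 CPM at Olfr753-ps1, is replicate 2 of 9.6.

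The 15 losses had smaller fold changes than the 15 gains, and 14 of them lay over 3 kb from a TSS. The one with the largest fold change lay at AC144861.1 on chromosome 18 (chr18:85465996-85467882), 514823 bp from the TSS of Fbxo15, with 0.785, 1.68 and 2.04 CPM in B-ALL + NK and 5.46, 7.74 and 9.66 CPM in B-ALL alone (log2 fold change −2.27 ± 0.22, edgeR adjusted p = 2.39e-07). Gm48496, 451165 bp from the TSS of Inhba, which encodes an activin subunit (chr13:16465252-16466029), had 0.262, 0.991 and 1.13 CPM in B-ALL + NK and 2.89, 3.96 and 5.25 CPM in B-ALL alone (−2.22 ± 0.28). AY702102, 119512 bp from the zinc finger gene Zfp217 (chr2:170011009-170012407), had 2.66, 3.17 and 3.49 CPM in B-ALL + NK and 11.8, 13.3 and 15.6 CPM in B-ALL alone (−2.13 ± 0.16, edgeR adjusted p = 7.96e-09). All 3 had arms that lay apart.

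Near genes with a role in lymphocytes, Stk17b and Rasgrp3 stood among the 15. Stk17b encodes the kinase DRAK2, linked to apoptosis and antigen receptor signalling. An exonic peak 29324 bp from its TSS (chr1:53753422-53758379) had 4.19, 5.61 and 7.57 CPM in B-ALL + NK and 16.4, 20.5 and 22.2 CPM in B-ALL alone (−1.79 ± 0.16, edgeR adjusted p = 7.76e-08). With this peak counted, 10 of the 13 tested peaks of the locus fell (21 consensus peaks, median −0.71). Rasgrp3 encodes a guanine nucleotide exchange factor that links B cell receptor signals to Ras, and its promoter (chr17:75464635-75466279) was the only one of the 15 within 3 kb of a TSS. It had 1.06, 3.25 and 3.91 CPM in B-ALL + NK and 4.14, 11.6 and 18.3 CPM in B-ALL alone (−1.80 ± 0.23). The cells alone split by experiment, at 4.14 to 8.19 CPM in 9.5 and 15.1 to 18.3 CPM in 9.6, and the log2 fold change was −1.12 in 9.5 and −2.24 in 9.6. A peak 58609 bp from the TSS of Degs1, the gene of the dihydroceramide desaturase that completes ceramide synthesis (chr1:182223186-182225204), had 1.96, 3.81 and 6.2 CPM in B-ALL + NK and 10.2, 14.8 and 17.5 CPM in B-ALL alone (−1.81 ± 0.20).

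The remaining losses among the 15 were Gm4915 and Il1rapl2 on chromosome X, Gm7182, Gm18513 near the receptor tyrosine kinase gene Ros1, 2900024D18Rik near the phosphofructokinase gene Pfkp, Gm37508 near Lsamp, Gm48492 near Inhba, Mab21l1 and Gm31258 near the deubiquitinase gene Usp25, with log2 fold changes from −1.95 to −1.80. With the GC offset the 15 losses lay between −2.17 and −1.43. By locus, calls of loss were dense at Mab21l1 (7 of 8 tested, median −0.97), upstream of Inhba (5 of 6, median −0.93), at Emb, which encodes the cell adhesion protein embigin (7 of 12), at Zfp217 (7 of 22, with 2 gains), at Mef2c, a transcription factor gene of B cell development (13 of 25), and at Setbp1 (13 of 35, with 2 gains). The counts at Mab21l1, upstream of Inhba and at Zfp217 include the named losses there, Mab21l1, Gm48496, Gm48492 and AY702102. Gains were dense at Nlrc5, the transactivator of MHC class I genes (16 of 36 tested, median 0.58), from Cebpb to Ptpn1, which encode a C/EBP transcription factor and a phosphatase that acts on JAK kinases (31 of 83, 1 loss), and at the guanylate-binding protein genes on chromosome 5 (15 of 35) and chromosome 3 (5 of 21). These loci, and those of Iigp1, Serpina3 and Ms4a, were picked for their calls, so their counts are a description. With the GC offset the counts at Cebpb and Ptpn1 were 16 gains, at Stk17b 6 losses, at Inhba 2 and at Mef2c 7.

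Gene groups were then read at their promoters, taking for each gene the tested peak nearest to a TSS within 3 kb. Of 17 IFN-γ-induced GTPase genes, which act on intracellular pathogens, 3 rose, or 5 without replicate 2 of B-ALL + NK in 9.6, 0 fell and 14 were not called (median log2 fold change 0.21, against −0.13 over all tested promoter peaks, of which 7.03% gained and 4.79% lost). They were Iigp1, Gbp6 and Gbp10. Gbp6 had 8.37, 17.2 and 19.6 CPM in B-ALL + NK and 4, 5.51 and 8.21 CPM in B-ALL alone (1.43 ± 0.20), and Gbp10 had 14.8, 19.8 and 29.8 CPM in B-ALL + NK and 6.3, 7.81 and 8.7 CPM in B-ALL alone (1.36 ± 0.16). Irgm1, a GTPase that regulates the others, lay at −0.07 ± 0.11. Counting all 82 tested peaks whose nearest coding gene is in this group, 30 (36.6%) gained and 1 lost, against 9.02% and 4.6% of all tested peaks.

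Of 43 measured antiviral interferon-stimulated genes 7 rose and 0 fell, with a median of 0.11 (all promoter peaks, 7.03% gained and 4.79% lost). Lgals3bp, which encodes a secreted galectin-binding glycoprotein (chr11:118400886-118402515), had 23.3, 33.2 and 39.5 CPM in B-ALL + NK and 7.45, 11.9 and 17.8 CPM in B-ALL alone (1.45 ± 0.13, edgeR adjusted p = 8.51e-08). Mx1, a GTPase that blocks viral replication (chr16:97461675-97464216), had 21.3, 24.7 and 29.9 CPM in B-ALL + NK and 8.61, 9.76 and 10.8 CPM in B-ALL alone (1.35 ± 0.13). Neither gene's arms overlapped. Rtp4 rose by 1.13 ± 0.18, and Ifi27 (0.67), Ifit1 (0.62), Oas2 (0.61) and Oasl2 (0.60) lay just above the threshold of 0.58. Mx2 lay at 0.11 and Isg15, a ubiquitin-like modifier, at 0.34 without a call. The median of this group was −0.01 with the GC offset and 0.32 with the loess offset, where 12 genes rose.

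Of 22 genes of interferon signalling and feedback 0 fell and 2 rose, Nlrc5 (1.57 ± 0.34) and Batf2, which encodes a transcription factor (1.51 ± 0.17) (median −0.21, and 0.10 with the loess offset). These 2 of 22 stand near the 7.03% of all promoter peaks that gained, and with the GC offset 2 rose and 2 fell. The promoters of both subunits of the IFN-γ receptor lay lower without a call, Ifngr1 at −0.48 ± 0.12 and Ifngr2 at −0.25 ± 0.12. Of 24 genes of MHC class I presentation (class I molecules inhibit NK cells) 0 fell and 1 rose, H2-Q10 (0.60 ± 0.18). It was not called without replicate 2 of B-ALL + NK in 9.6 (0.43) or without replicate 2 of B-ALL alone in 9.6 (0.56). B2m, the invariant chain of class I, lay at −0.47 ± 0.14, H2-K1 at −0.11 and H2-D1 at −0.06. None of 11 MHC class II genes was called by edgeR, with H2-Aa at −0.07, H2-Ab1 at −0.33 and H2-Eb1 at 0.01. The medians of class I and II were 0.00 and −0.27, and 0.29 and 0.03 with the loess offset.

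Of 24 inhibitors of killing and death regulators 4 rose and 0 fell (median −0.16, and 0.08 with the loess offset), where 7.03% of all promoter peaks gained and 4.79% lost. With the GC offset 5 rose and 2 fell. These were Serpina3f, Serpina3g, Serpina3i (2.43 ± 0.24) and Fas, the death receptor that NK cells engage and which promotes rather than inhibits killing (10.1, 14.9 and 15.5 CPM in B-ALL + NK, 6.11, 7.41 and 9.27 CPM in B-ALL alone, 0.88 ± 0.15). Serpinb9, the intracellular granzyme B inhibitor, lay at −0.04 ± 0.13. Of 6 measured Ly6 and PLAAT genes 2 rose, or 1 without replicate 2 of B-ALL + NK in 9.6 and with either the GC or the loess offset. The promoter of Ly6a (chr15:74995795-75000804), whose product Sca-1 sits on the cell surface, had 31.0, 39.6 and 57.4 CPM in B-ALL + NK and 14.7, 19.5 and 22.9 CPM in B-ALL alone (1.09 ± 0.12, edgeR adjusted p = 1.77e-06), and Ly6d rose by 0.80 ± 0.26 with arms that overlapped. The chemokine genes Ccl3 (0.60 ± 0.19) and Cxcl16 (0.75 ± 0.24) rose of 6 measured, also with overlapping arms, and neither was called without replicate 2 of B-ALL + NK in 9.6. Of the 11 ligands of activating NK receptors 1 fell, Cd48, the ligand of CD244, with 10.6, 19.4 and 24.7 CPM in B-ALL + NK and 25.1, 28.8 and 32.1 CPM in B-ALL alone (−0.61 ± 0.15), which was lost without that library. None of 11 inhibitory and costimulatory ligands was called by edgeR (Cd274, the gene of PD-L1, at −0.04 ± 0.17).

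Of 35 B cell identity genes 0 rose and 5 fell (median −0.37, all promoter peaks 4.79% lost), or 3 without replicate 2 of B-ALL + NK in 9.6. The 5 were Rasgrp3, Ikzf3, the gene of the transcription factor Aiolos (10.1, 14.8 and 18 CPM in B-ALL + NK, 22.8, 23.8 and 24.2 CPM in B-ALL alone, −0.72 ± 0.13), Syk, the kinase downstream of the pre-B cell receptor (−0.64 ± 0.16), Rag2, a subunit of the V(D)J recombinase (−0.61 ± 0.17), and Spib, which encodes an ETS transcription factor (−0.58 ± 0.15). The 16 housekeeping promoters had a median of −0.35 with 1 loss (Hprt, on chromosome X, −0.62 ± 0.16), and the 27 cell cycle genes −0.35 with 1 loss (Mcm3, −0.63 ± 0.19). With the loess offset the medians of the B cell, housekeeping and cell cycle groups were −0.10, −0.06 and −0.09, with 1 loss among B cell genes and 0 in the others. With the GC offset they were −0.44, −0.49 and −0.49, with 8, 5 and 6 losses, and with no filter on low counts 11 B cell genes fell. The calls at Hprt and Mcm3 were also lost without that library, as were both calls among early response genes that follow. Of 20 AP-1 and early response genes 2 fell, Nr4a2 (−0.67) and Klf6 (−0.59), with a median of −0.27 and of 0.05 with the loess offset, and with the GC offset 4 fell (−0.41). STAT5 targets (15) and NF-κB targets (18) had no call by edgeR, with medians of −0.31 and −0.25, and of 0.03 and 0.06 with the loess offset. With the GC offset 4 STAT5 and 2 NF-κB targets fell (medians −0.46 and −0.41).

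NK marker promoters in the longer list of 13 measured genes had 1 gain, Gzmb (1.08 ± 0.19), and 4 losses, the receptor genes Klrc1, Klra1, Klra3 and Klri2 (−1.33 to −0.90). For this and the next lists, 7.03% of all tested promoter peaks gained and 4.79% lost, and 1 gain of 13 stands near that share. The Klra genes are near-identical copies and uncertain. Of 9 T cell markers Ctla4 (0.89) and Cd8b1 (0.68) rose and 0 fell, and of 11 myeloid markers 2 rose and 0 fell (median 0.11), with 1 gain left in each of these lists without replicate 2 of B-ALL + NK in 9.6. Of the 12 genes that the study named 4 rose, Iigp1, Mx1, Ly6a and Ifi27, and 0 fell. That list came from these samples and is not independent evidence of direction.

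**Figure D3:**
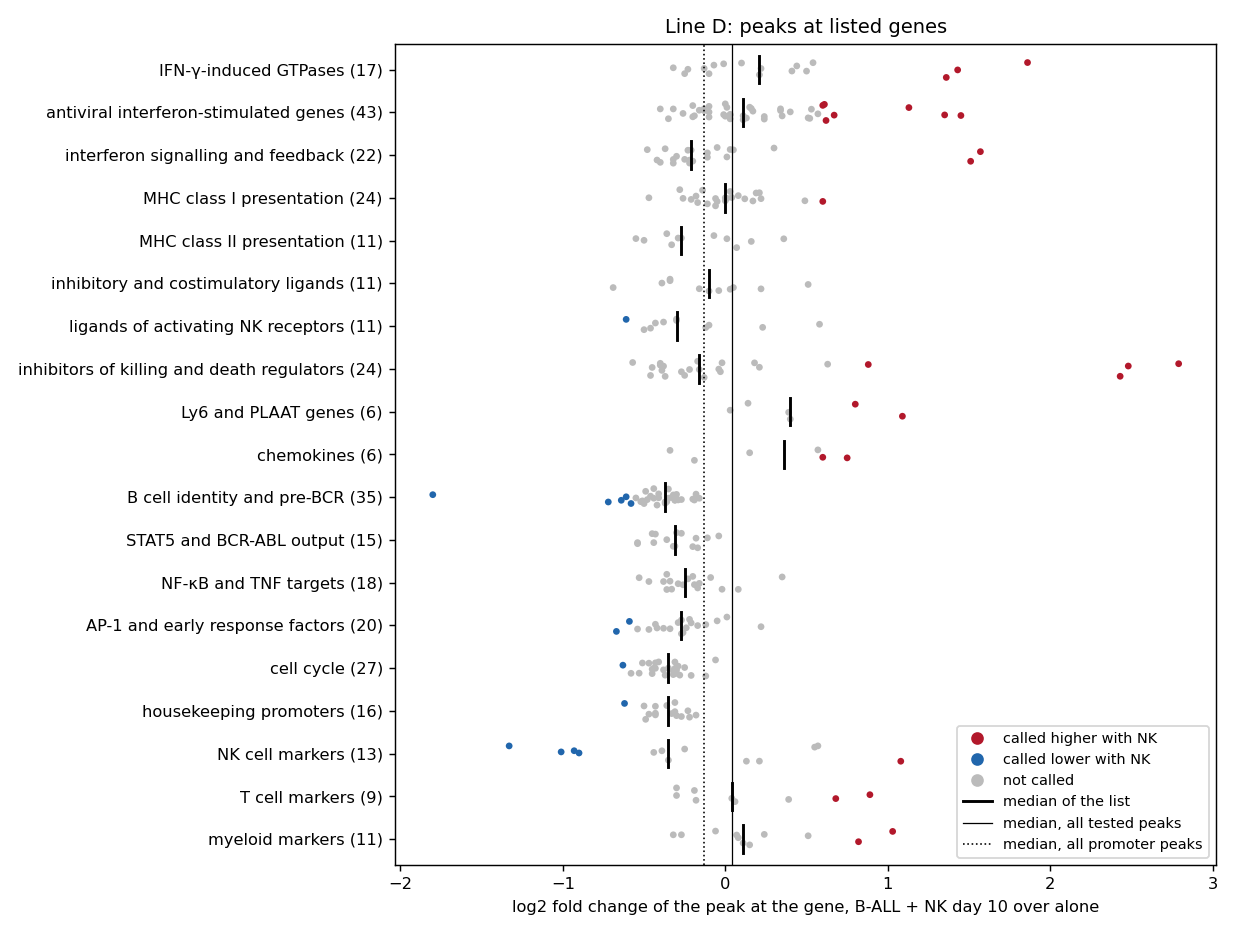
Log2 fold change, B-ALL + NK at day 10 over B-ALL alone, of the peak at each listed gene (points, 1 per gene, red if called higher, blue if called lower, grey if not called), with the median of each list (thick bar), of all tested peaks (0.04, solid line) and of all tested promoter peaks (−0.13, dotted line). Red points are concentrated in the upper lists, while the medians of most other lists sit at or left of the dotted line.

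The next question was whether other experiments on line D gave the same changes. Experiment 9.6.1 was a repeat with 3 libraries of B-ALL + NK at day 10 and 2 of B-ALL alone, and experiment 9.7 had 3 of B-ALL + NK at day 16 and 3 of B-ALL alone at day 6. None of these libraries entered the comparison above. In 9.6.1, 2.98% of 94582 tested peaks gained and 1.64% lost. In 9.7, 14.2% of 100564 gained and 19.5% lost, 33.7% in all. The 2818 gains in 9.6.1 were 1742 without replicate 2 of B-ALL + NK and 1823 without replicate 1 of B-ALL alone, and its 1547 losses ranged from 232 to 4588 with any 1 of its 5 libraries left out. The 15 named gains were higher with NK cells in 12 of 12 peaks tested in 9.6.1, where 10 were called, and in 13 of 14 tested in 9.7, where 12 were called. Gm8369 rose by 3.17 ± 0.32 in 9.6.1 and 3.22 ± 0.22 in 9.7, and Olfr753-ps1 by 1.89 ± 0.34 and 2.40 ± 0.37. Gm5970 was the exception, at 0.34 ± 0.36 in 9.6.1 and −0.75 ± 0.38 in 9.7, without a call in either. Of the 64 gains of at least 2 on the log2 scale, 54 of 55 tested in 9.6.1 and 54 of 57 tested in 9.7 had the same sign, and 31 and 44 were called.

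Over all gains the shares were lower. Of all 9397 gains, 33.1% of those tested in 9.6.1 had the same sign, against 47.0% of all peaks tested in both, and 3.17% were called in the same direction, against 3.08% of those peaks. In 9.7 the same sign was seen in 19.5% (49.1% of all), and 48.3% of the gains tested there were called in the opposite direction. For losses the shares with the same sign were 46.9% in 9.6.1 and 27.6% in 9.7, against 53.0% and 50.9% of all peaks tested in both. In 9.6.1 2.75% and in 9.7 4.02% were called as losses again, against 1.62% and 18% of those peaks, and 23.2% of the losses were called in the opposite direction in 9.7. Among gains that were detected as a broad peak in a whole group, the same sign was seen in 67.2% in 9.6.1 and 70.6% in 9.7. For losses so detected it was 44.3% and 24.8%, with 25.4% called the opposite way in 9.7, and for gains at promoters 27.3% and 13.8%.

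The 15 named losses had the same sign in 11 of 12 tested peaks in 9.6.1 and 11 of 14 in 9.7, with 4 called in each, where 1.62% and 18% of all peaks tested in both were called lower. AY702102 near Zfp217 and Gm18513 near Ros1 fell in both, AY702102 by 0.73 ± 0.21 and 0.59 ± 0.20 and Gm18513 by 1.53 ± 0.22 and 1.30 ± 0.21. AC144861.1 and 2900024D18Rik fell in 9.6.1, by 1.31 and 2.14. Rasgrp3 and Stk17b fell in 9.7, by 1.11 ± 0.19 and 0.68 ± 0.21, and lay at −0.23 ± 0.29 and −0.13 ± 0.26 in 9.6.1. Degs1 lay at −0.14 in both. Among loci, the Ms4a region gained at 7 of 7 and 9 of 9 tested peaks in 9.6.1 and 9.7. The Iigp1 region gained at 11 of 17 and 10 of 13, and Serpina3 at 6 of 10 and 7 of 10 (1 loss). The filter on low counts was applied in the same way there, so these counts carry the same limit. The Nlrc5 locus gained at 4 of 32 and 6 of 33 with 7 losses in 9.7. The Stk17b locus lost at 0 of 13 and 4 of 14 with 1 and 3 gains.

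**Figure D4:**
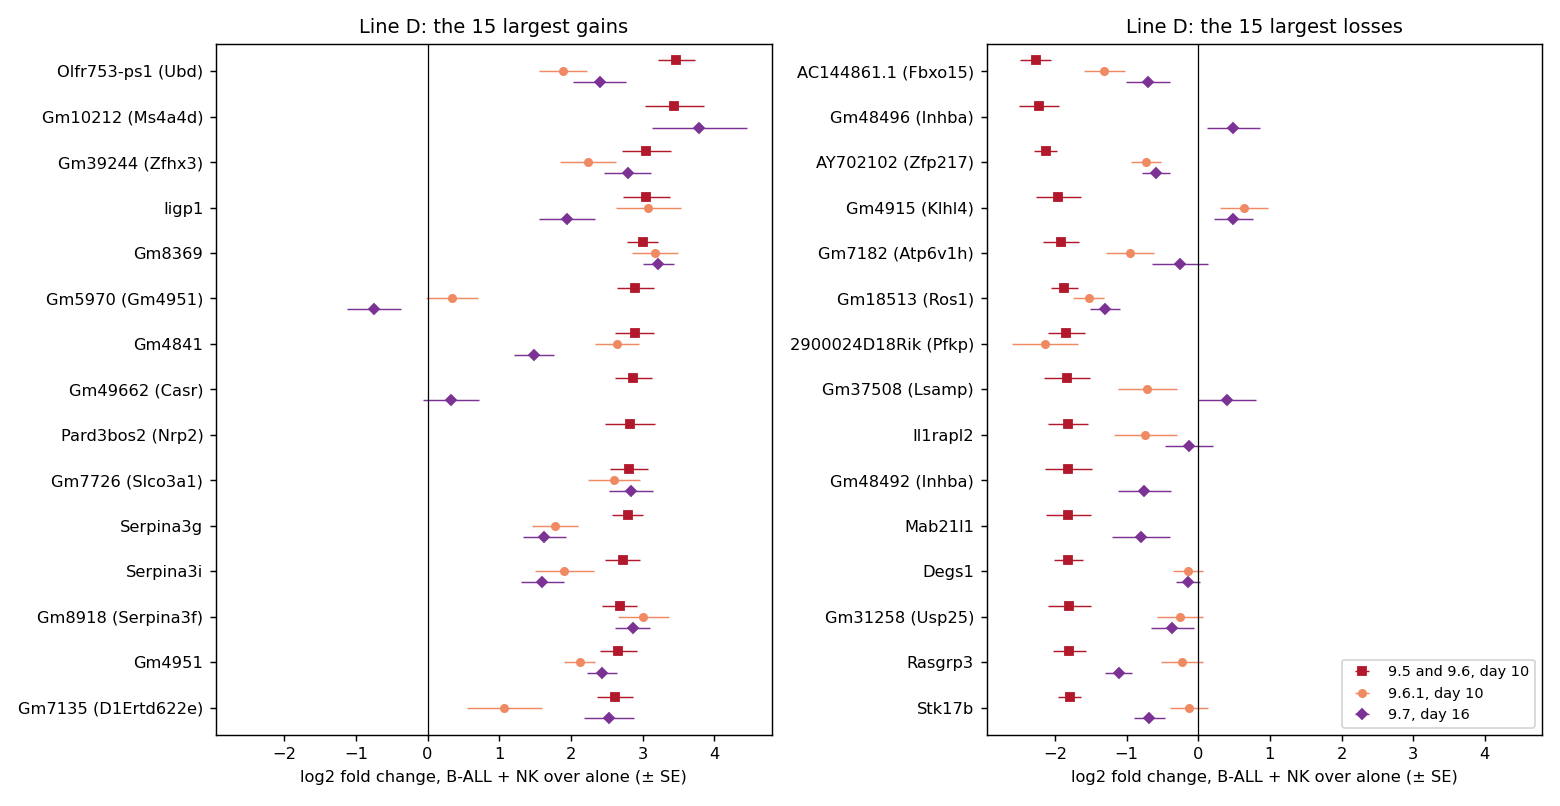
Log2 fold change (± SE) of the 15 largest gains (left) and losses (right) of line D in experiments 9.5 and 9.6 together (red squares, day 10), in 9.6.1 (orange circles, day 10) and in 9.7 (purple diamonds, day 16), each B-ALL + NK over B-ALL alone. The gains stay right of 0 in all but Gm5970 in 9.7 (−0.75), while most losses lie nearer to 0 in the 2 other experiments, such as Degs1 at −0.14.

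Listed genes were read in the same way. The GTPase group had 6 and 10 of 17 up in 9.6.1 and 9.7, and the antiviral group 10 and 25 of 42, with 0 down, where 672 of 26067 and 2732 of 27110 tested promoter peaks were called higher. Ly6a rose by 0.95 and 1.23, Mx1 by 1.70 and 1.61, and Fas by 0.79 and 1.11. Batf2 lay at 0.42 and 0.08 without a call, and Gzmb was lower in 9.7 at −1.66. The B cell identity genes had medians of 0.37 and 0.48 there, with 5 and 9 of 35 up, against a median of −0.37 in 9.5 and 9.6.

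Line D had also been sampled at day 4 with NK cells, in 6 libraries of the same experiments, which asks what was already different early. In a fit over the 3 arms, 12585 of 114236 tested peaks (11%) were higher at day 10 than at day 4 and 5330 (4.67%) were lower. These values share libraries with the main comparison, so they are set side by side only. The named gains had log2 fold changes over alone of 2.62 to 3.47 at day 10 (median 2.87), against 0.96 to 3.35 at day 4 (median 2.32). Gm8369 had 9.87, 10.4 and 14.2 CPM at day 4, and Gm4951 20.7, 25.5 and 32.2 CPM, levels within those of day 10. The Serpina3i peak had the largest difference of the 15 between the days, with 1.7, 2.73 and 4.43 CPM at day 4 and a difference of 1.76 ± 0.21, day 10 minus day 4 (edgeR adjusted p = 4.36e-06). Gm10212 was higher at day 10 by 1.21 ± 0.30 and Pard3bos2 by 1.08 ± 0.28.

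The named losses lay between −1.04 and −0.14 at day 4 over alone (median −0.79), and their differences between the days ran from −1.80 to −0.82. AY702102 had 8.76, 10.3 and 11.6 CPM at day 4, above the 3.49 CPM of the highest library at day 10 and below the 11.8 CPM of the lowest library alone. Stk17b had 7.02, 14.1 and 19 CPM at day 4 and Rasgrp3 3.43, 7.47 and 19.3 CPM, a range that overlapped both other arms. Among listed genes, Batf2 lay at 1.51 at day 10 and 0.73 at day 4, and Nlrc5 at 1.57 at day 10 and 0.24 at day 4. Mx1 (1.35 at day 10, 1.11 at day 4), Ly6a (1.09 at day 10, 1.10 at day 4) and Fas (0.88 at day 10, 0.82 at day 4) were not called in the difference between the days. The count of peaks higher at day 10 was 5059 and that of lower ones 3185 without replicate 2 of B-ALL + NK in 9.6, and the higher ones numbered 7840 without replicate 2 of day 4 in 9.6. Without one of replicate 3 of day 4 in 9.6, replicate 1 of day 10 in 9.5, or replicates 1 or 3 of day 10 in 9.6, the lower ones numbered 8141 to 9189.

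Line D was last set against the other lines and its own experiments. The effect of NK cells at day 10 did not differ detectably between experiments 9.6 and 9.5 at any single peak by edgeR (0 called of 104147, 7147 at an unadjusted p under 0.05), although without replicate 2 of B-ALL + NK in 9.6 there were 18 higher and 4 lower, and with the replicate number as a block 41 higher and 10 lower. Between line D and line C, which share a parental line, and with replicates 2 and 3 of line C with NK cells in 9.5 taken as 1 sample because their counts were alike within sampling noise, edgeR called 0 of 128672 peaks (4384 at an unadjusted p under 0.05, and 3 called higher without that library). The named gains had effects of 1.07 to 3.15 in line C and the named losses −1.63 to −0.40. A peak that misses the threshold is not thereby shown to act alike: for Gm10212 the difference, D minus C, was 2.08 ± 0.65, and for Gm4915 −1.58 ± 0.41.

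Against the mean of lines A and B, 443 of 120245 peaks (0.368%) had a higher effect in line D and 418 (0.348%) a lower one, 0.716% in all. Pcdhac1, a protocadherin gene on chromosome 18 (chr18:37088410-37091103), lay at 3.38, 6.95 and 10.9 CPM in B-ALL + NK of line D and 2.73, 4.86 and 8.4 CPM in B-ALL alone, an effect of 0.41, against −1.92 in A and −1.60 in B, so that the difference was 2.17 ± 0.22 (edgeR adjusted p = 1.94e-09). St5 had effects of 0.28 in D, −1.91 in A and −1.36 in B (difference 1.90 ± 0.22). The locus of 2610035D17Rik, 278525 bp from the TSS of the transcription factor gene Sox9, had 1.15 in D, −0.84 in A and −1.79 in B (2.45 ± 0.29). These differences were fitted in 9.5 and 9.6 only. In line D of 9.6.1 and 9.7, 2610035D17Rik lay at 0.21 ± 0.41 without a call and at −1.94 ± 0.39, called lower. St5 lay at −1.08 ± 0.35, called lower, and at −0.69 ± 0.3 without a call. Pcdhac1 lay at 0.14 ± 0.25 without a call and at 1.02 ± 0.19, called higher. The positive sign in D was thus not repeated at 2610035D17Rik in 9.7 or at St5 in either experiment. With a lower effect in D, an intronic peak of Nrxn3, a neurexin gene, had effects of 2.61 in A and 1.69 in B and a difference of −3.19 ± 0.51. It was not among the peaks tested in line D on its own. Among the 30 named peaks, which were chosen for large effects in D, 2 gains had a higher effect in D than in A and B, Gm5970 (1.38 ± 0.33) and Pard3bos2 (1.89 ± 0.44), and 6 losses a lower one, from −1.82 ± 0.39 at Il1rapl2 to −1.19 ± 0.19 at Stk17b. At Rasgrp3 the effects were −1.80 in D, −2.23 in A and −1.86 in B, and at AY702102 they were −2.13 in D, −2.07 in A and −1.71 in B. The counts of 443 and 418 were 230 and 224 without replicate 1 of B-ALL alone of line D in 9.6, 174 and 215 without replicate 3 of that group, and 817 lower ones without replicate 1 of B-ALL + NK in 9.6. Without replicate 2 of B-ALL alone in 9.6 there were 246 higher, without replicate 3 of B-ALL + NK in 9.6 258 higher, and without replicate 2 of B-ALL + NK in 9.6 278 lower. Leaving out replicate 2 of line A with NK cells in 9.5 gave 270 higher and replicate 1 of line B with NK cells in 9.6 gave 267.

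**Figure D5:**
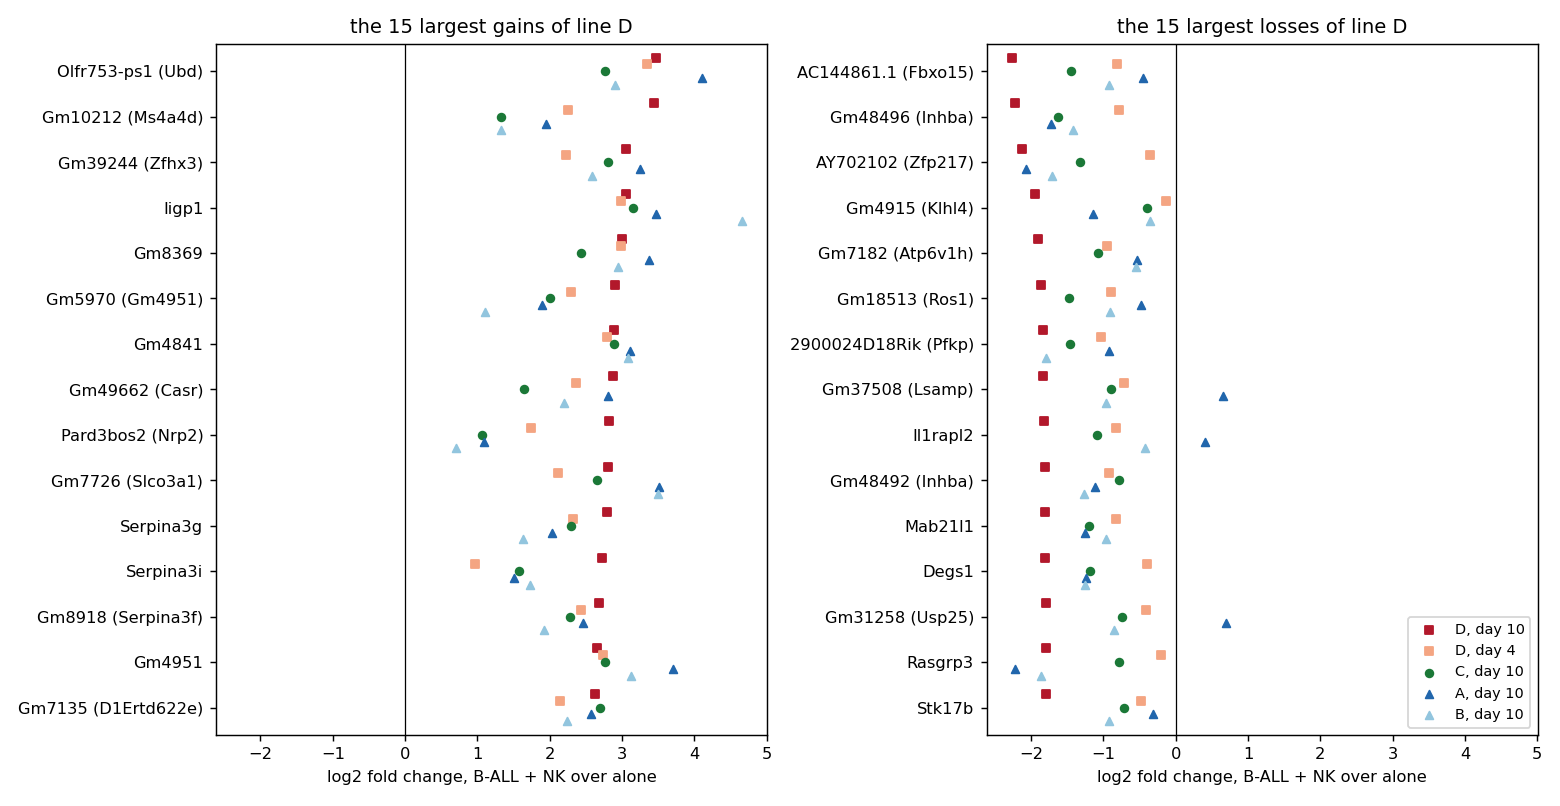
Log2 fold change, B-ALL + NK over B-ALL alone, of the 15 largest gains (left) and losses (right) of line D at day 10 (red squares) and day 4 (pale red squares), and of lines C (green circles), A (dark blue triangles) and B (pale blue triangles) at day 10. The gains lie right of 0 in every line and at both times, and losses such as Stk17b (−1.79 in D) lie nearer to 0 in lines A and B (−0.31 and −0.93), whereas Rasgrp3 does not (−2.23 and −1.86).

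Long stretches of the genome were compared through the share of counts on each chromosome. Chromosome X took 0.831, 1.09 and 1.22% of autosomal and X counts in B-ALL + NK and 1.09, 1.23 and 1.48% in B-ALL alone, a difference of −0.195 percentage points (exact p = 0.01, adjusted over the 20 chromosomes 0.0667, and 0.05 for peaks over 3 kb from a TSS). Of its 1325 tested peaks 18 gained and 211 lost, where 9.02% of all tested peaks gained and 4.6% lost. Chromosome 2 had a higher share in B-ALL + NK, 8.17 ± 0.122%, against 7.99 ± 0.126% in B-ALL alone, and chromosome 13 a lower one, 3.79 ± 0.15% against 4.00 ± 0.122% (SD, n = 6 each, exact p = 0.005 and adjusted p = 0.05 for both). For chromosomes 2 and 13 the adjusted p from the exact test was 0.1 or 0.15 without replicate 2 of B-ALL + NK in 9.5 or in 9.6, or without any 1 of the B-ALL alone libraries of 9.6, and for X it was 0.0333 without replicate 1 of B-ALL alone in 9.5 and 0.05 without replicate 1 of B-ALL + NK in 9.6. These shares take no account of GC content, whose median over tested peaks was 50.5% on chromosome 2, 47.6% on 13 and 46.9% on X. With the GC offset the median log2 fold change went from 0.10 to 0.05 on chromosome 2 and from −0.09 to −0.05 on 13. On X it went from −0.37 to −0.33. On chromosome Y, 5 of 20 tested peaks lost and 0 gained, beside the same 4.6% and 9.02% of all tested peaks. In the other experiments the X share averaged 1.23% in B-ALL + NK and 1.25% in B-ALL alone in 9.6.1, and 1.14% in B-ALL + NK and 1.05% in B-ALL alone in 9.7.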

How the data were processed

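Accessibility was measured by ATAC-seq in GFP+ B-ALL cells. Per the study's methods and the submitters' processing notes, reads were aligned with STAR to GRCm38, Picard 2.27.4 marked the duplicates, and MACS2 2.2.7.1 called broad peaks. The authors deposited raw counts of read pairs per consensus peak, counted without strand, and broad peaks of each library with −log10 q values. Their methods name a blacklist of a human build, and no peak was removed here for it. The counts were used unchanged, and the broad peaks only to count them and to say where a peak was detected.

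Total counts per library ran from 5310200 to 9446082. Peaks with low counts were dropped with filterByExpr (104147 of 256400 kept), and edgeR 4.0.16 fitted quasi-likelihood models on TMM-scaled counts with experiment as a block. Differences between experiments, days and lines were fitted as contrasts in the same way. A call needed an adjusted p of 0.05 or less and a log2 fold change of at least 0.58. Log2 fold changes are given ± SE. Single measures were compared by exact two-sided permutation tests within experiments, with Benjamini-Hochberg adjustment over the 20 chromosomes. In line C, replicates 2 and 3 with NK cells in 9.5 were alike within sampling noise and entered as 1 sample.

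Peaks were named by the nearest GENCODE TSS (M21 basic), and a promoter peak has its centre within 3 kb of one. Genes named in the text are the 15 gains and 15 losses with the largest fold change, 1 per gene, called, of at least 1 CPM in the higher arm and with arms that did not overlap in either experiment, the listed genes, and the 5 largest differences each way of the other contrasts. Genes of the lists were examined at their peak nearest to a TSS. The members, the lists and the dense loci were chosen with earlier results of these data known.

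Alternatives were RLE scaling, loess and GC offsets (limma 3.58.1), DESeq2 1.42.0, other filters, each experiment alone, a replicate block and each library left out. Replicate numbers were not taken as pairs: the deviations of same-numbered libraries correlated at 0.005 to 0.021 in 9.5 and 0.183 to 0.456 in 9.6. On simulated counts over 104147 peaks, 61 of 100 peaks changed by 1 on the log2 scale were called, and 3 unchanged ones. The simulation gave every peak the same spread between libraries. It had no effect of experiment, no trend with level or GC content and no library apart. It therefore checks the fit and does not give the share of false calls in the real comparison.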

Additional observations from a re-analysis of the deposited data

Results flagged for a closer look

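A library far from the other 5 of its arm was looked for in 82 sets of 6 values, and 8 were found. Chance gives about 1 in 20. Replicate 2 of B-ALL + NK in experiment 9.6 was apart in its share of counts near TSSs (38.2%), in its broad peaks (101211) and in the mean GC content of its counts (52.4%), and was lowest at Gm4841 (5.89 CPM). Among cells alone, replicate 1 of 9.5 was apart at Gm49662 (1.89 CPM) and replicate 2 of 9.6 at Gm8918 (3.96 CPM), both high and nearer to the cells with NK. Replicate 1 of B-ALL + NK in 9.6 was high at Gm37508 (1.77 CPM) and replicate 1 in 9.5 was low at Rasgrp3 (1.06 CPM).

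The effect of NK cells at day 10 differed between line D and the mean of lines A and B at 443 peaks with a higher and 418 with a lower effect in D (edgeR, difference of the effects). Named peaks among them were Gm5970 (1.38) and Pard3bos2 (1.89) among gains, and AC144861.1 (−1.60), Gm18513 (−1.20), Gm37508 (−1.68), Il1rapl2 (−1.82), Gm31258 (−1.74) and Stk17b (−1.19) among losses.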

How the results depend on the processing

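Against 9397 gains, 4475 were called with the loess offset, 5908 without a filter on low counts, 6131 without the experiment block, 5349 with the GC offset and without replicate 2 of B-ALL + NK in 9.6, 3021 among detected peaks, 3384 among promoter peaks fitted alone, 1962 with 9.6.1 added and 61 in 9.6 alone. Against 4786 losses the counts were 8476 without the filter, 1167 among detected peaks, 330 among promoter peaks, 1381 with 9.6.1 added and 40 in 9.6 alone. Detected or promoter peaks alone are fewer peaks, and they were scaled anew in their own fits. In the main fit the same detected peaks held 1388 gains and 3620 losses, and the same promoter peaks 1941 and 1322. Calls thus moved from loss to gain in these fits. The cause of the changes in this paragraph was not tested, and 9.5 alone, also 6 libraries, gave 6866 gains and 3228 losses. Day 10 against day 4 gave 7501 higher with the GC offset, 3796 higher and 3413 lower with the loess offset, and 6484 and 16609 without the filter. Without the filter, D against A and B gave 204 and 256, 9.6.1 gave 5390 and 733, and 9.7 gave 25956 higher.

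With the replicate number as a block, the main comparison gave 12025 gains and 5820 losses, the difference between experiments 41 and 10, and D against A and B 846 lower. Same-numbered libraries share only a number in the labels. Their deviations correlated at 0.005 to 0.021 in 9.5 and at 0.183 to 0.456 in 9.6, where replicates 1 with NK cells and 3 alone reached 0.267.

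With any 1 library left out, the ranges were 4559 to 12875 gains and 3188 to 6203 losses, 0 to 18 and 0 to 4 between experiments, 5059 to 14629 and 3185 to 9189 between the days, 0 to 3 and 0 to 0 against line C, 174 to 539 and 215 to 817 against A and B, 1742 to 3387 and 232 to 4588 in 9.6.1, and 11751 to 17314 and 16190 to 22449 in 9.7. Differences in chromosome share ran from −0.23 to −0.133 for X (−0.159 over distal peaks), 0.129 to 0.197 for chromosome 2 and −0.253 to −0.15 for chromosome 13. Those in total counts ran from −510834 (without replicate 3 of B-ALL + NK in 9.5) to 523136, and were −40564 without replicate 1 of B-ALL alone in 9.5. The share near TSSs moved by −4.46 to −2.93 points, broad peaks by 1022 to 14925, and summed markers by −137 to −99.3 CPM for B-lineage, 6.49 to 8.52 for NK, −2.19 (without replicate 2 of B-ALL + NK in 9.6) to 1.8 for T cells, which was −0.642 without replicate 3 of B-ALL alone in 9.5, and 1.43 to 5.33 for myeloid cells.

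The 30 named peaks kept their direction in every refit. Counting each peak in each refit as 1 value, 761 values kept the call and 14 lost it, all in the fit of 9.6 alone. These peaks were chosen for large changes in the same libraries, so their stability was largely set by the choice. Over all 133 named peaks no value changed sign where the main fit or the refit made a call. Where neither made a call the sign was not compared. Under other settings 181 values lost their call and 25 gained one. With 1 library left out 78 lost it and 5 gained one. Of the values called in neither fit, 209 under other settings moved by at least 1 SE, and 1 with a library left out. Depth limits weak peaks: the named losses held as little as 0.211 CPM in a library.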
